A study of Mus musculus with 22 samples.

Results

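*Nxph3*, *Mpp1*, *Ndnf*, *Acox2* and *Aif1l* were followed across the choroid plexus (ChP) of 2 mouse models of *Otx2* loss. The 5 genes, among 33984 genes with counts, were selected on measured values of this series, because their response to Cre-Tat in the fourth ventricle (4V) ChP of adult mice was larger than their response to the Otx2(+/-) genotype in the same tissue. Those 4V values therefore describe how the genes were picked and were given no test. The lateral ventricle (LV) ChP was not used in picking them, and the tests below are of the LV ChP.

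RNA was measured in 14 pools of ChP, 2 (A and B) for each of 7 groups. In the conditional model, *Otx2* lox/lox mice were aged 3 months and labelled as strain S129. They received Cre-Tat, a recombinase joined to a cell-penetrating peptide, or vehicle by injection into the lateral ventricles only. LV and 4V ChP were dissected 15 days later. The fourth ventricle was not injected directly, so delivery to LV and 4V ChP may have differed. Each pool held tissue of 5 Cre-Tat mice or 4 vehicle mice, and vehicle mice carried the same floxed alleles. In the constitutive model, 4V ChP was pooled from B6D2 mice, also aged 3 months, that were wildtype, Otx2(+/-) (1 *Otx2* allele replaced by GFP from conception, in every tissue) or Otx2(+/AA), a genotype that the labels name without describing. The recombinase has no promoter of its own and acts in whichever cells take it up, and sexes were mixed in the study's mice. By the study's methods, LV and 4V ChP were taken from the injected mice and extracted separately, so LV and 4V pools of 1 treatment may share mice, and the LV tests are then not independent of the 4V values used to pick the genes. Model, strain and sequencing run changed together, so a difference in level between the 2 models cannot be told apart from a difference between strains or runs.

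The ChP is a sheet of epithelium over a vascular core in each ventricle. It makes cerebrospinal fluid, forms a barrier between blood and that fluid, and secretes proteins into it, among them transthyretin. OTX2 is a homeodomain transcription factor that the ChP epithelium keeps making in the adult and that acts through short TAATCC-like DNA sequences. The 5 genes have no common pathway. *Nxph3* (neurexophilin 3) and *Ndnf* (neuron-derived neurotrophic factor) encode secreted glycoproteins. *Mpp1* encodes p55, a scaffold beneath the plasma membrane. *Acox2* encodes a peroxisomal oxidase of branched-chain fatty acids and bile acid intermediates. *Aif1l* encodes an actin-bundling relative of the macrophage protein AIF1.

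Levels are CPM, counts per 1000000 counts: the count of a gene's most-counted transcript, divided by a library size scaled by the trimmed mean of M values (TMM) over the 14 pools. Total counts were 22750019 to 50088408 per pool (median 40706266). The 10 defining markers of ChP epithelium were high in every group, with a summed level between 86990 and 231705 CPM. That sum was 222443 to 231705 CPM in vehicle LV and 123236 to 164720 in Cre-Tat LV, where 5 of the 10 markers fell and none rose, and it was 185437 to 219165 in vehicle 4V and 86990 to 98214 in Cre-Tat 4V. Ependymal markers (6 genes, ciliated cells that line the ventricles) summed to 228 to 236 CPM in vehicle LV and 338 to 405 in Cre-Tat LV, with 2 of 5 tested called higher, to 205 to 251 in vehicle 4V and 367 to 387 in Cre-Tat 4V, and to 342 to 374 in wildtype and 304 to 366 in Otx2(+/-). The sum was thus higher with Cre-Tat in both ventricles and overlapped between wildtype and Otx2(+/-). Most of it came from *Foxj1*, *Tekt1* and *Dynlrb2*, each higher with Cre-Tat in both ventricles. *Ccdc153* (at most 1.7 CPM in the conditional model) overlapped between vehicle and Cre-Tat in both. *Tmem212* (at most 0.478 CPM there) overlapped in LV and *Rarres2* in 4V. The part of ependymal cells in the values of the 5 genes was not tested. In whole tissue, fewer epithelial cells and less RNA per epithelial cell cannot be told apart.

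The labels had to be checked first. Of the 16 files of the conditional model, 14 carry a library number in their name that belongs to another pool than the one they are attached to. Files were assigned by that number, because the 8 pairs of files with the same number differed by no more than sampling noise (chi-square per degree of freedom, 1.002 to 1.032). Pairs formed as attached gave 13.2 to 20.5. This comparison shows which files share a library. It does not show which group a library belongs to, which was taken from the numbering alone. The study listed *Ndnf* among the genes most raised by Cre-Tat in both ventricles. *Ndnf* was higher with Cre-Tat in both when files were assigned by number, and lower in both with the files as attached. All Cre-Tat values here rest on the assignment by number, and those obtained with the files as attached are given in the closing section. The targeted gene also went against a plain reading of the labels when its most-counted transcript was taken. *Otx2* was at 386 and 470 CPM in vehicle LV and at 1236 and 1025 CPM in the LV pools labelled Cre-Tat. In 4V it was at 386 and 393 CPM with vehicle and at 1202 and 1223 CPM in the pools labelled Cre-Tat. The pools labelled Otx2(+/-) had 1027 and 886 CPM, against 361 and 303 CPM in wildtype and 339 and 357 CPM in Otx2(+/AA). This *Otx2* count thus rose where the labels name a loss (log2 fold change in LV, 1.41 ± 0.18 SE; adjusted p = 0.00051, edgeR). Not all *Otx2* transcripts did so: *Otx2-206* had 939 and 692 counts in Otx2(+/-) and 1254 and 972 in wildtype, although with Cre-Tat it was higher in LV too (log2 fold change 0.89 ± 0.17; edgeR adjusted p = 0.0046 over transcripts). By the study's methods, Cre-Tat samples had been checked by quantitative PCR for reduced *Otx2*. From its sequencing, the study also reported fewer reads of a single *Otx2* exon with Cre-Tat than with vehicle, in both ventricles. It reported the same decrease in the mutant carrying GFP, against wildtype. Reads of single exons, among them the exon removed by Cre, cannot be counted apart in these files, so that decrease could not be checked here. The counts used here do not show how much OTX2 was left, and why they rose was not tested.

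**Figure D1:**
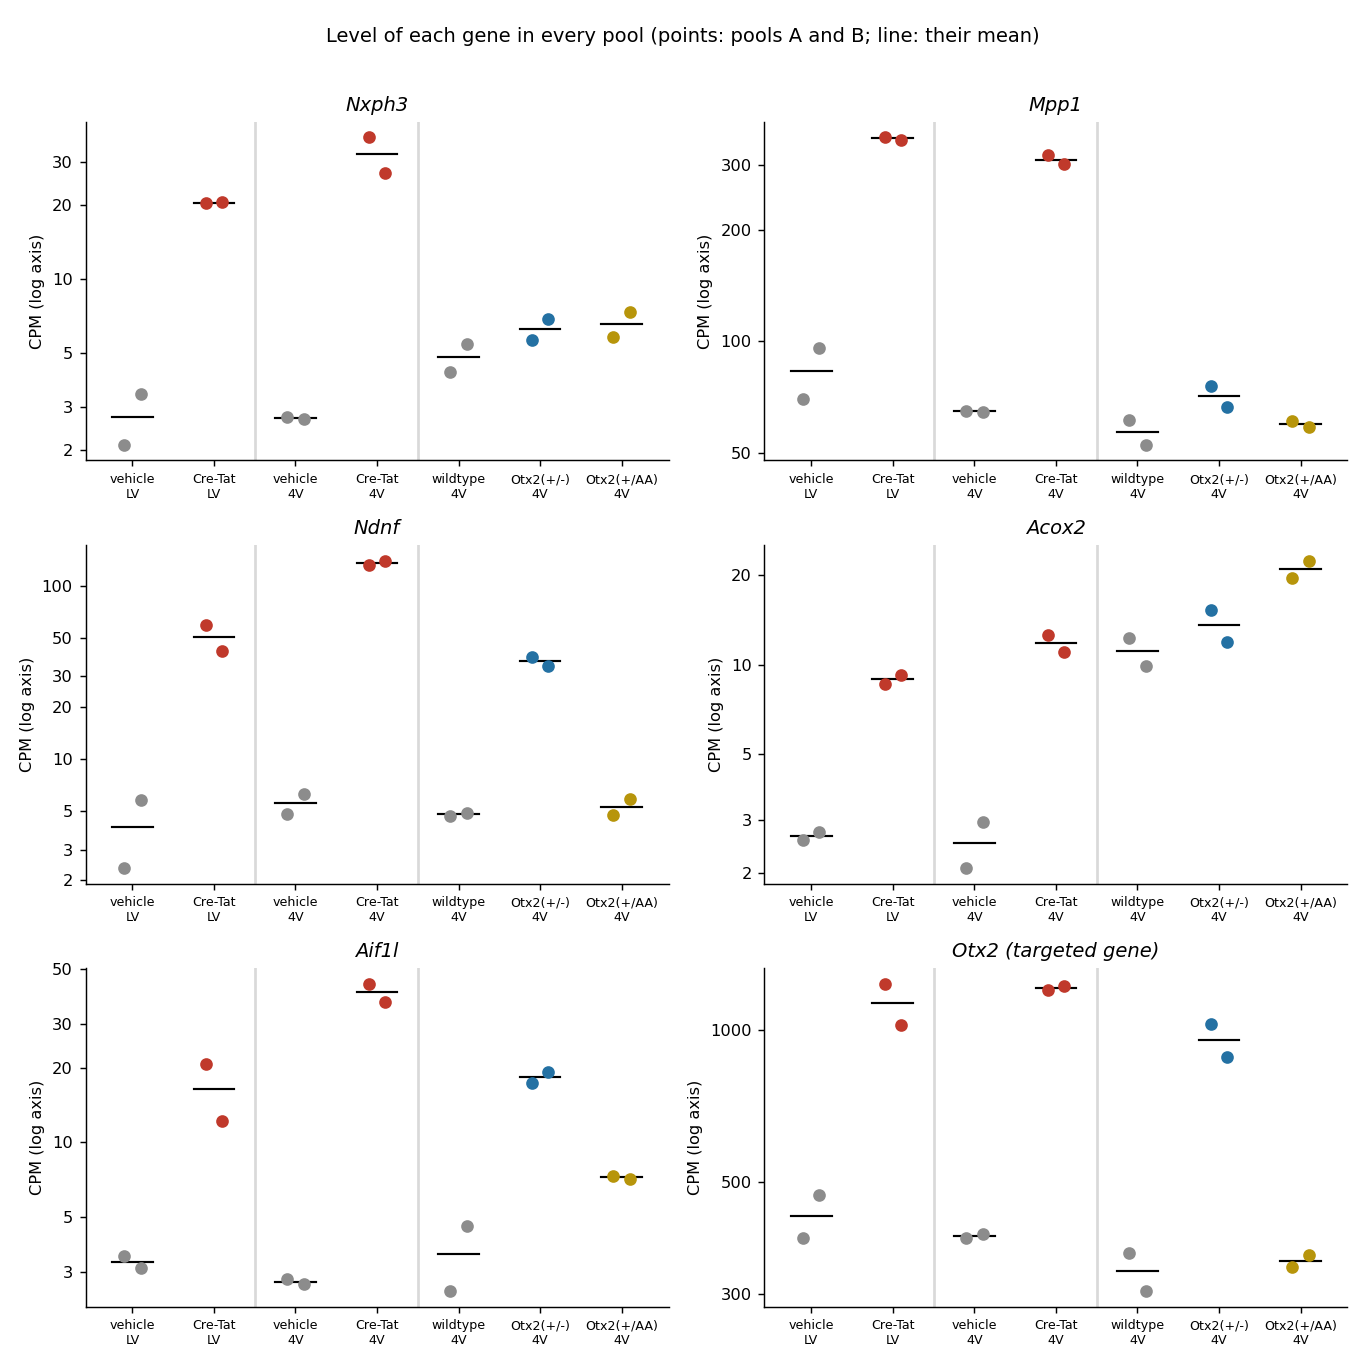
Level of each of the 5 genes and of *Otx2* in the 14 pools, in CPM on a log axis. Points are the 2 pools of a group and lines are their means; grey marks vehicle or wildtype controls, red Cre-Tat, blue Otx2(+/-) and yellow Otx2(+/AA). Both Cre-Tat pools lie above both vehicle pools in every panel, whereas in the Otx2(+/-) pools only *Ndnf*, *Aif1l* and *Otx2* stand several-fold above wildtype.

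The sequence before the start of a gene is shown first, as a description only. RefSeq start windows of build GRCm38.p6 matched 3 of the 5 genes. Both strands of the 250 bases before each start were searched for TAATCC, the preferred core of OTX-type homeodomains, and for its variant TAAGCC. Of the 32851 windows of that length, 6.25% hold the first motif and 8.2% hold the second. The 250 bases before *Mpp1* (chrX:75131017-75131266, minus strand) hold TAAGCC once on the opposite strand, beginning 16 bases before the start and shown in capitals as its complement. In *Aif1l* neither motif occurs, and the 86 bases before its annotated first exon (chr2:31950053-31950138, plus strand) are shown for comparison. *Acox2* holds TAAGCC once on its own strand, 24 bases before a RefSeq start and inside the first exon of its longer annotated transcript, and 30 bases around it are shown (chr14:8259026-8259055, minus strand). A match is only these letters, and binding was not measured.
Mpp1: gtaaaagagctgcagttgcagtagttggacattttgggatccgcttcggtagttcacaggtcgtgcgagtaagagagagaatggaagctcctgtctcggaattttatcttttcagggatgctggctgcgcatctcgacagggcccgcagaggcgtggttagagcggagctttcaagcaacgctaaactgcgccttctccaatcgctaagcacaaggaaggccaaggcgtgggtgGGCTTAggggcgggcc
Aif1l: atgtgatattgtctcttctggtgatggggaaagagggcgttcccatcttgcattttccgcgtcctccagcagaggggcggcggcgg
Acox2: agagggatccttTAAGCCtggaagctgagt

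In LV ChP, all 5 genes were called higher with Cre-Tat by edgeR's quasi-likelihood test (Benjamini-Hochberg adjusted p under 0.05), where 2.21% of the 15003 genes tested were called higher, 1.03% lower and 3.24% in either direction. Both Cre-Tat pools were above both vehicle pools for all 5, as they were for 21.9% of genes tested. The rises were between 3.36-fold (*Acox2*) and 12.5-fold (*Ndnf*). Ordered by log2 fold change from the highest among the 15003 genes, *Ndnf* was at place 28, *Nxph3* at 50, *Aif1l* at 94, *Mpp1* at 132 and *Acox2* at 207. The genes were picked with earlier results of these data known, so the LV calls are not evidence gathered apart from that choice.

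*Nxph3* encodes a secreted ligand of alpha-neurexins, adhesion proteins best known from presynaptic terminals. It lies on chromosome 11 (95509845 to 95514570, minus strand, GRCm38; ENSMUSG00000046719), and its single annotated transcript has 2 exons. Vehicle LV pools had 2.10 and 3.38 CPM, and Cre-Tat LV pools had 20.3 and 20.6 CPM. Vehicle 4V pools had 2.74 and 2.68 CPM, and Cre-Tat 4V pools had 37.7 and 27.0 CPM. The Cre-Tat pools were thus far above vehicle in both ventricles, with the 2 treated LV pools nearly equal. In the constitutive model the gene was at 4.18 and 5.40 CPM in wildtype, at 5.65 and 6.88 in Otx2(+/-) and at 5.81 and 7.30 in Otx2(+/AA). Both mutant groups lay just above wildtype without overlap, and they overlapped each other.

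The LV rise of *Nxph3* was 7.48-fold (log2 fold change 2.90 ± 0.23 SE, n = 2 pools a group; edgeR adjusted p = 1.4e-05). In 4V, which was used to pick the gene, the log2 fold change was 3.58 ± 0.23, against 0.39 ± 0.22 in Otx2(+/-) and 0.44 ± 0.24 in Otx2(+/AA). The 2 constitutive comparisons share their wildtype pools. *Nxph3* thus gave the widest gap of the 5 between Cre-Tat 4V and Otx2(+/-), 3.19 on the log2 scale. Its paralogs were hardly detected: *Nxph1*, *Nxph2* and *Nxph4* reached at most 0.543, 0.156 and 0.113 CPM in any pool and were not tested.

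Among the neurexins and their partners on the cell surface, 13 genes were tested in LV, of which 1 rose and 2 fell (median log2 fold change 0.06, against 0.00 over all genes tested). *Nlgn1*, a postsynaptic neurexin ligand, rose from 0.525 and 0.547 CPM to 2.33 and 2.71 CPM (log2 fold change 2.22 ± 0.44; edgeR adjusted p = 0.014). *Lrrtm2* and *Clstn3*, other neurexin-binding membrane proteins, fell by 0.68 and 0.80 on the log2 scale (edgeR adjusted p = 0.033 and 0.023). Leaving out vehicle LV pool A ended both calls (that of *Lrrtm2* was also lost without vehicle pool B and that of *Clstn3* without Cre-Tat pool A). In 4V with Cre-Tat, where 5.7% of 14550 genes were called higher, 4.98% lower and 10.7% either way, 1 of 12 list genes rose and 3 fell, again *Nlgn1* up (2.44 ± 0.43) and *Lrrtm2* and *Clstn3* down, with *Nlgn3* also down. In Otx2(+/-), with 1.8% of 14573 genes called higher, 1.75% lower and 3.55% either way, *Nlgn3* fell (-0.77 ± 0.15; edgeR adjusted p = 0.027) and the other 11 were not called. The *Nlgn3* call was lost without Otx2(+/-) pool B. Summed neuronal markers were 18.1 to 19.1 CPM in vehicle LV and 23.6 to 27.1 in Cre-Tat LV, with 1 of 5 tested markers called higher, but 12.5 to 23.3 CPM in vehicle 4V and 11.2 to 12.1 in Cre-Tat 4V. The part of neurons in the *Nxph3* values was not tested.

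*Mpp1* was the most abundant of the 5. The MAGUK protein it encodes, p55, links membrane proteins to the spectrin-actin skeleton and is best known from red blood cells. The gene lies on chromosome X (75109733 to 75131016, minus strand; ENSMUSG00000031402), overlaps *Dkc1* on the other strand by 45 bases, and its main transcript has 12 exons. Vehicle LV pools had 70.0 and 95.9 CPM, and Cre-Tat LV pools had 356 and 351 CPM. Vehicle 4V pools had 64.9 and 64.3 CPM, and Cre-Tat 4V pools had 318 and 302 CPM. The treated pools of both ventricles formed a tight band, and the LV pair was slightly higher than the 4V pair without overlap. Wildtype pools had 61.2 and 52.4 CPM, Otx2(+/-) pools 75.8 and 66.5 and Otx2(+/AA) pools 60.8 and 58.5. Otx2(+/-) lay a little above wildtype, and Otx2(+/AA) fell within the wildtype range.

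The LV rise of *Mpp1* was 4.27-fold (log2 fold change 2.09 ± 0.18; edgeR adjusted p = 2.1e-05). The 4V log2 fold change was 2.27 ± 0.14 with Cre-Tat, 0.33 ± 0.13 in Otx2(+/-) and 0.06 ± 0.13 in Otx2(+/AA), the last turning to -0.05 with 1 pool left out. *Mpp1* was the only 1 of the 5 whose mean level was higher in Cre-Tat LV than in Cre-Tat 4V (354 ± 3.75 against 310 ± 11 CPM, SD, n = 2). Haemoglobin and *Alas2* RNA, the erythrocyte markers, summed to at most 0.478 CPM in vehicle LV and to 0.12 and 9.13 CPM in the Cre-Tat LV pools. *Mpp1* was at 356 and 351 CPM in those Cre-Tat pools. The part of erythrocytes in the *Mpp1* values was not tested.

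Of 24 MAGUK, polarity and membrane-skeleton genes tested in LV, 2 rose and 1 fell (median -0.12). *Mpp6*, a paralog of *Mpp1*, rose from 9.55 and 8.11 to 17.0 and 16.8 CPM (0.94 ± 0.18; edgeR adjusted p = 0.012), a call lost without vehicle LV pool B. *Whrn*, a PDZ scaffold that pairs with MAGUK proteins in sensory cells, rose by 1.05 ± 0.16, and *Crb3*, an apical polarity protein, fell by 0.69 on the log2 scale (edgeR adjusted p = 0.0021 and 0.047). The *Crb3* call was lost without Cre-Tat pool A or either vehicle pool. In Cre-Tat 4V, 2 of 25 rose and 5 fell, with *Mpp6* and *Whrn* up (1.08 ± 0.19 and 1.09 ± 0.17) and *Crb3*, *Mpp7*, *Sptb*, *Mpp2* and *Epb41l3* down. *Sptb* and *Epb41l3*, membrane-skeleton genes, also fell in Otx2(+/-) (-0.70 ± 0.11 and -0.73 ± 0.16), where none of the 25 rose. The 4V call of *Mpp2* was lost on leaving out any 1 pool and that of *Epb41l3* without Cre-Tat pool A or either vehicle pool, and the Otx2(+/-) call of *Epb41l3* was lost without Otx2(+/-) pool A or wildtype pool B. The paralogs *Mpp2*, *Mpp4*, *Mpp5* and *Mpp7* had LV log2 fold changes of -0.32, -0.30, -0.15 and -0.41 and were not called, and *Mpp3* stayed at or below 0.55 CPM.

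*Ndnf* gave the largest fold change of the 5 in each Cre-Tat comparison. Its product is a secreted protein with fibronectin type III domains that is known from neurons and endothelium. The gene spans 65671590 to 65712326 on the plus strand of chromosome 6 (ENSMUSG00000049001), and its main transcript has 4 exons. Vehicle LV pools had 2.34 and 5.77 CPM and Cre-Tat LV pools had 59.2 and 42.0. Vehicle 4V pools had 4.82 and 6.28 CPM and Cre-Tat 4V pools had 132 and 140. All 4 treated pools were far above all 4 vehicle pools, and the 4V pair was well above the LV pair. In the constitutive model, wildtype pools had 4.70 and 4.89 CPM, Otx2(+/-) pools 38.9 and 34.3 and Otx2(+/AA) pools 4.74 and 5.84. *Ndnf* was thus also high in Otx2(+/-), somewhat below its level in Cre-Tat LV, and at wildtype level in Otx2(+/AA).

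The LV rise of *Ndnf* was 12.5-fold (log2 fold change 3.65 ± 0.31; edgeR adjusted p = 1.6e-05). The value depended on the spread of the vehicle pools, reaching 4.43 without vehicle LV pool B and 3.13 without vehicle LV pool A. The 4V log2 fold change was 4.63 ± 0.17 with Cre-Tat and 2.93 ± 0.16 in Otx2(+/-), a 7.64-fold difference in the latter that ranked 22 of 14573 genes from the highest. In Otx2(+/AA) it was 0.13 ± 0.23, turning to -0.02 with 1 pool left out. The working description of the 5 genes as rising mainly after adult Cre-Tat therefore held for *Ndnf* only as a matter of degree, since 1.70 log2 units separated a large response from a larger one.

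None of the other 14 secreted neurotrophic factors and FGF receptors tested in LV was called by edgeR or DESeq2, and 3 had an unadjusted edgeR p under 0.05 (median -0.09). In Cre-Tat 4V, *Artn* (artemin, a GDNF family ligand) rose from 0.148 and 0.462 to 1.90 and 2.87 CPM (3.01 ± 0.56; edgeR adjusted p = 0.0017), *Fgfr2* rose by 0.55 ± 0.13 and *Ntf5* (neurotrophin 4) fell by 0.72 on the log2 scale. The *Fgfr2* call was lost without either vehicle 4V pool, and that of *Ntf5* without vehicle 4V pool A. In Otx2(+/-) none of the 14 was called by either tool, and 4 had an unadjusted edgeR p under 0.05. Fibroblast and meningeal markers summed to 622 to 657 CPM in vehicle LV and 582 to 596 in Cre-Tat LV, with 1 of 8 called higher and 1 lower, to 531 to 553 in vehicle 4V and 465 to 517 in Cre-Tat 4V, and to 773 to 860 in wildtype and 1040 to 1148 in Otx2(+/-). The 8 markers in this sum did not all move the same way. *Col1a2*, a collagen chain, went from 39.5 and 46 to 119 and 147 CPM in LV, from 39.4 and 51.1 to 131 and 136 in 4V, and from 81.1 and 72.5 in wildtype to 167 and 159 in Otx2(+/-), the direction of *Ndnf* in all 3. *Pdgfra*, a receptor of stromal cells, went from 232 and 254 to 130 and 135 CPM in LV and from 216 and 228 to 89 and 87.6 in 4V. It went from 186 and 189 CPM in wildtype to 167 and 155 in Otx2(+/-), so it was opposite to *Ndnf* in all 3. The part of fibroblasts in the *Ndnf* values was not tested. Summed endothelial markers were 219 to 260 CPM in vehicle LV and at most 286 in Cre-Tat LV, with none of 7 called.

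*Acox2* had the smallest LV response and the most uneven baseline. Its product shortens the side chains of branched fatty acids and bile acid intermediates in peroxisomes. The gene spans 8225511 to 8259353 on the minus strand of chromosome 14 (ENSMUSG00000021751), and its main transcript has 15 exons. Vehicle LV pools had 2.58 and 2.74 CPM, and Cre-Tat LV pools had 8.59 and 9.27 CPM. Vehicle 4V pools had 2.07 and 2.95 CPM, and Cre-Tat 4V pools had 12.6 and 11 CPM. The rise was similar in both ventricles, with no overlap in either. Wildtype pools already had 12.3 and 9.90 CPM, Otx2(+/-) pools had 15.3 and 11.9 and Otx2(+/AA) pools 19.6 and 22.4. The wildtype pools were above Cre-Tat LV and overlapped Cre-Tat 4V and Otx2(+/-), and Otx2(+/AA) was highest of the 7 groups.

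The LV rise of *Acox2* was 3.36-fold (log2 fold change 1.75 ± 0.24; edgeR adjusted p = 0.00099). The 4V log2 fold change was 2.25 ± 0.25 with Cre-Tat, 0.30 ± 0.19 in Otx2(+/-) and 0.91 ± 0.18 in Otx2(+/AA). *Acox2* was thus further from wildtype in Otx2(+/AA) than in Otx2(+/-), the reverse of *Ndnf* and *Aif1l*. The mean of the wildtype pools was 4.41 times that of the vehicle 4V pools. A gap at least as wide in either direction, without overlap of the pools, was found for 1.28% of 13951 genes. *Acox2* in Cre-Tat 4V thus overlapped untreated B6D2 wildtype, and model, strain and run cannot be told apart in that comparison. The summed level of 9 macrophage markers went in a similar order over the 4V groups, 65.4 to 68.5 CPM in vehicle, 103 to 143 in Cre-Tat, 121 to 124 in wildtype, 123 to 134 in Otx2(+/-) and 143 to 159 in Otx2(+/AA). Cre-Tat LV departed from that order. Its macrophage sum was 142 to 158 CPM, above wildtype, but its mean *Acox2* level was 8.93 CPM, below the 11.1 CPM of wildtype. Other sums also differed between wildtype and vehicle 4V. Endothelial markers were at 399 to 425 against 152 to 168 CPM, and mural markers at 495 to 518 against 205 to 226. In Cre-Tat 4V both sums overlapped vehicle. Epithelial and neuronal sums overlapped between wildtype and vehicle 4V. The part of macrophages or of these other cells in the *Acox2* values was not tested. For the other 4 genes the wildtype mean was 1.77 (*Nxph3*), 0.88 (*Mpp1*), 0.865 (*Ndnf*) and 1.3 (*Aif1l*) times the vehicle mean.

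Of 25 other genes of peroxisomal oxidation tested in LV, 2 rose and none fell (median 0.04). *Ddo*, D-aspartate oxidase, rose from 38.9 and 40.7 to 79.2 and 67.4 CPM (0.88 ± 0.16; edgeR adjusted p = 0.0083), and *Pipox*, which oxidizes pipecolic acid, rose from 2.10 and 1.24 to 4.66 and 4.54 CPM (1.46 ± 0.33; edgeR adjusted p = 0.025). The first call was lost without vehicle LV pool A, and the second without Cre-Tat pool A or vehicle pool B. The paralog *Acox3*, which also acts on branched-chain substrates, had an LV log2 fold change of -0.24 ± 0.16 and was not called. In Cre-Tat 4V only *Crat*, carnitine acetyltransferase, was called (0.63 ± 0.15), a call lost without vehicle 4V pool A. In Otx2(+/-) only *Ddo* was called (0.98 ± 0.11; edgeR adjusted p = 0.0023).

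*Aif1l* encodes a calcium-binding protein of the AIF1 family that bundles actin and is made outside the macrophage lineage as well. The gene lies on chromosome 2 (31950139 to 31973442, plus strand; ENSMUSG00000001864), its main transcript has 6 exons, and it overlaps *Gm13442* on the other strand by 67 bases. Vehicle LV pools had 3.49 and 3.13 CPM, and Cre-Tat LV pools had 20.6 and 12.2 CPM. Vehicle 4V pools had 2.82 and 2.68 CPM, and Cre-Tat 4V pools had 43.6 and 36.9 CPM. The treated LV pools were wide apart yet both well above vehicle, and both 4V pools were higher still. Wildtype pools had 2.51 and 4.61 CPM, Otx2(+/-) pools 17.4 and 19.3 and Otx2(+/AA) pools 7.31 and 7.14. In the constitutive model the *Aif1l* pools were thus lowest in wildtype, intermediate in Otx2(+/AA) and highest in Otx2(+/-). They did not overlap, with only 2 pools a group and the wildtype pools well apart.

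The LV rise of *Aif1l* was 4.96-fold (log2 fold change 2.31 ± 0.26; edgeR adjusted p = 0.00019). The 4V log2 fold change was 3.87 ± 0.20 with Cre-Tat, 2.37 ± 0.26 in Otx2(+/-), where the gene ranked 40 of 14573, and 1.02 ± 0.28 in Otx2(+/AA). With 1 pool left out, the Otx2(+/AA) value was between 0.64 and 1.52. The Otx2(+/-) response was about equal to the LV response to Cre-Tat, the LV value minus the Otx2(+/-) value being -0.06, so that only the 4V response to Cre-Tat stood above the constitutive one. As with *Ndnf*, the description as mainly a response to adult Cre-Tat was one of degree for *Aif1l*.

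*Aif1*, the macrophage paralog, had 1.91 and 2.39 CPM in vehicle LV and 3.41 and 3.72 CPM in Cre-Tat LV (0.73 ± 0.31; edgeR adjusted p = 0.283). In 4V it rose from 0.963 and 1.2 to 2.39 and 2.72 CPM with Cre-Tat (1.25 ± 0.39; edgeR adjusted p = 0.047), a call lost on leaving out any 1 of the 4 pools. *Aif1* thus stayed at a few CPM in all pools of the conditional model. Of 15 AIF1-family and actin-bundling genes tested in LV, only *Lcp1*, the leukocyte plastin, was called, rising from 1.86 and 3.83 to 8.39 and 7.34 CPM (1.47 ± 0.30; edgeR adjusted p = 0.017), a call lost without Cre-Tat pool A or vehicle pool A (list median 0.07). In Cre-Tat 4V, 4 of 15 rose, *Aif1*, *Lcp1*, *Coro1a* and *Ezr*, of which the first 3 are leukocyte genes and *Ezr* encodes ezrin of microvilli, and *Pls3* fell. The calls of *Lcp1*, *Coro1a* and *Pls3* were each lost without Cre-Tat pool A and without vehicle pool A, and those of *Ezr* and *Pls3* without vehicle pool B (*Ezr* also without vehicle pool A). In Otx2(+/-) none of the 15 was called by edgeR or DESeq2, and 2 had an unadjusted edgeR p under 0.05. Macrophage markers rose with Cre-Tat as well: their sum over 9 genes was 81.5 to 94.3 CPM in vehicle LV and 142 to 158 in Cre-Tat LV (3 of 9 called higher), and 65.4 to 68.5 in vehicle 4V and 103 to 143 in Cre-Tat 4V. It was 121 to 124 CPM in wildtype, 123 to 134 in Otx2(+/-) and 143 to 159 in Otx2(+/AA), and the part of macrophages in the *Aif1l* values was not tested.

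In Otx2(+/AA), where 0.172% of 14494 genes were called in each direction and 0.345% in all, no tested gene of the 5 lists was called by edgeR or DESeq2. The genes with an unadjusted edgeR p under 0.05 were 0 of 11 for the neurexin list, 2 of 25 for the MAGUK list, 3 of 13 for the neurotrophic list, 4 of 25 for the peroxisomal list and 3 of 15 for the AIF1 list.

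**Figure D2:**
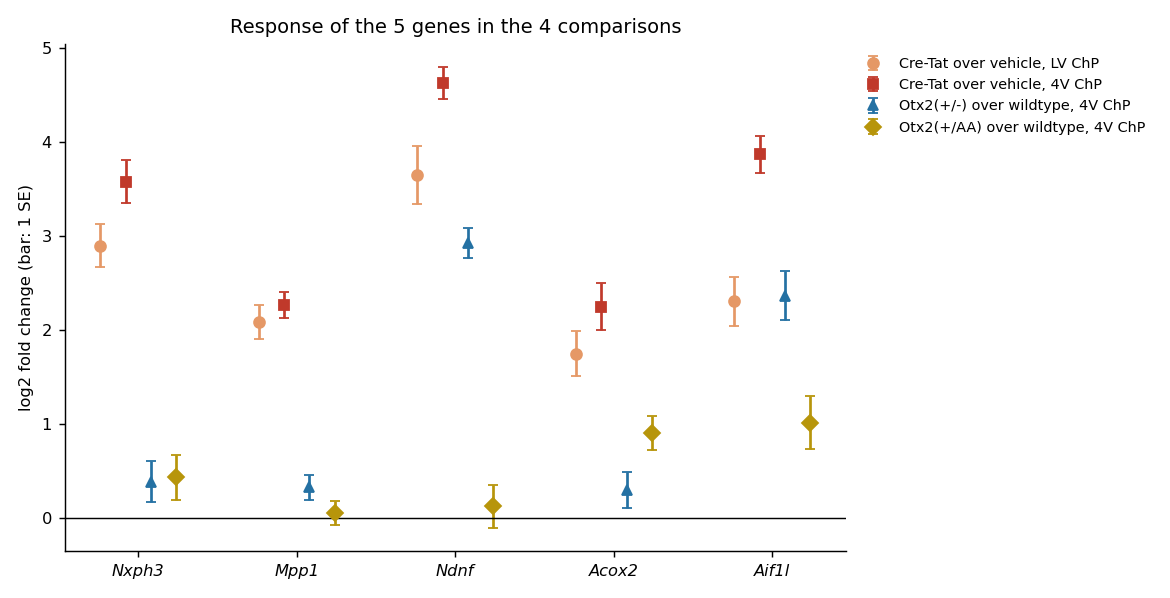
Log2 fold change of the 5 genes in the 4 comparisons, with bars of 1 SE (edgeR, 2 pools a group). Orange circles are Cre-Tat over vehicle in LV, red squares Cre-Tat over vehicle in 4V, blue triangles Otx2(+/-) over wildtype and yellow diamonds Otx2(+/AA) over wildtype. The red squares, which were used to pick the genes, are highest for all 5, and the blue triangles split the genes into *Nxph3*, *Mpp1* and *Acox2* at 0.30 to 0.39 and *Ndnf* and *Aif1l* at 2.93 and 2.37.

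Set side by side, the 5 genes fell into 2 patterns, read from the values and not tested. *Nxph3*, *Mpp1* and *Acox2* had Otx2(+/-) log2 fold changes of 0.30 to 0.39, each with an SE of 0.13 to 0.22. *Ndnf* and *Aif1l* had Otx2(+/-) log2 fold changes of 2.93 and 2.37. The excess of the 4V over the LV response to Cre-Tat also varied, from 0.17 log2 units for *Mpp1* and 0.50 for *Acox2* to 0.68 for *Nxph3*, 0.98 for *Ndnf* and 1.56 for *Aif1l*. Vehicle levels differed little between the ventricles, the log2 ratio of vehicle LV to vehicle 4V lying between -0.46 (*Ndnf*) and 0.35 (*Mpp1*). For *Mpp1* the vehicle LV pools were above the vehicle 4V pools without overlap, and the Cre-Tat LV pools were above the Cre-Tat 4V pools as well. Its 4V excess of 0.17 log2 units was within the SE of its LV response (0.18). For *Ndnf* the vehicle pools of the 2 ventricles overlapped.

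Per kilobase of transcript, which allows levels of different genes to be compared, *Mpp1* led throughout. Its mean level was 25.6 ± 0.181 CPM per kb in vehicle 4V and 123 ± 4.35 in Cre-Tat 4V (SD, n = 2). The other 4 genes were between 0.549 (*Ndnf*) and 1.29 (*Nxph3*) CPM per kb in vehicle 4V. With Cre-Tat, *Nxph3*, *Ndnf* and *Aif1l* came close together, at 15.4 ± 3.61, 13.5 ± 0.617 and 12.9 ± 1.54 CPM per kb, and *Acox2* stayed lowest at 4.06 ± 0.405. *Ndnf* thus moved from the lowest of the 5 to a level that did not differ from those of *Nxph3* and *Aif1l* beyond their spread.

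**Figure D3:**
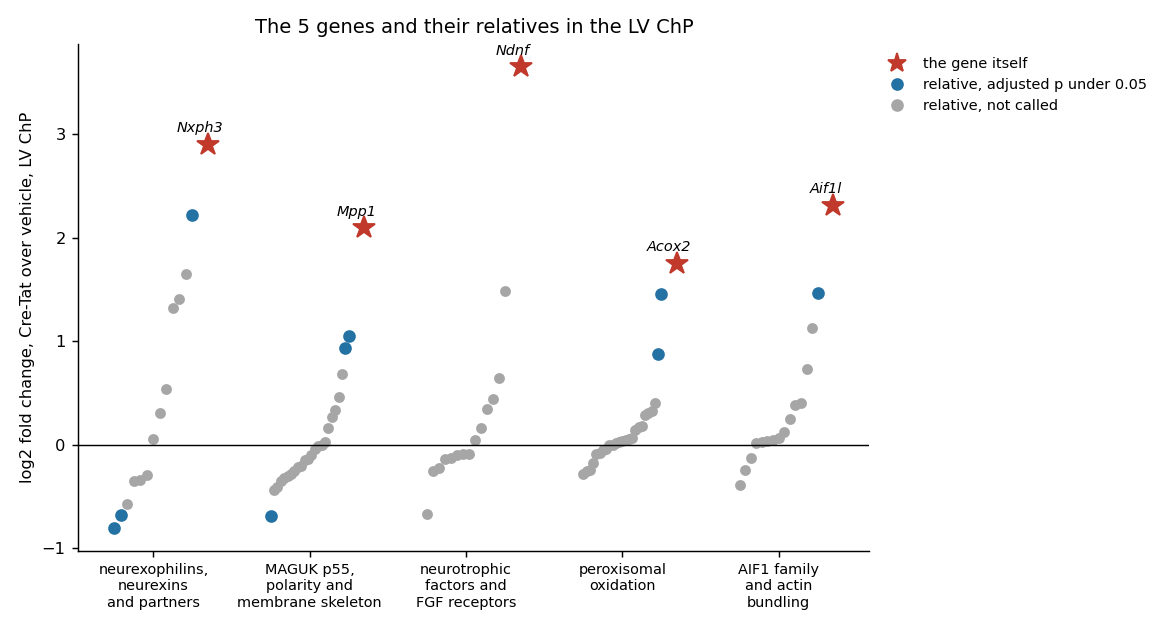
Log2 fold change, Cre-Tat over vehicle in LV ChP, of each of the 5 genes (red star) beside the tested genes of its family or pathway (circles, in rising order; blue where the edgeR adjusted p was under 0.05, grey where not). Each of the 5 genes lies above every tested relative in its list. The nearest are *Nlgn1* at 2.22 beside *Nxph3* at 2.90 and *Pipox* at 1.46 beside *Acox2* at 1.75. Unlike the relatives, the 5 genes were picked by their response to Cre-Tat in the other ventricle, whose pools may share mice with LV. Their place above the relatives may therefore follow from that choice and was not tested.

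The rise was shared by the other annotated transcripts of the genes, whose counts draw on many of the same reads and are not independent. Of 52290 transcripts tested in LV, 1.65% were called higher. For *Mpp1*, all 10 transcripts were called higher, with log2 fold changes of 1.90 to 2.25. Both *Ndnf* transcripts (3.39 and 3.65) and the single *Nxph3* transcript were called. For *Acox2*, 6 of 8 were called (range of all 8, 1.46 to 2.77), with *Acox2-203* and *Acox2-205*, both with a retained intron, at 1.46 ± 0.42 and 2.15 ± 0.64 (edgeR adjusted p = 0.078 and 0.087). For *Aif1l*, 3 of the 7 tested transcripts were called (1.56 to 2.32 over the 7) and 3 more of its 10 had too few counts to test. Every tested transcript of the 5 genes had a positive LV log2 fold change.

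**Figure D4:**
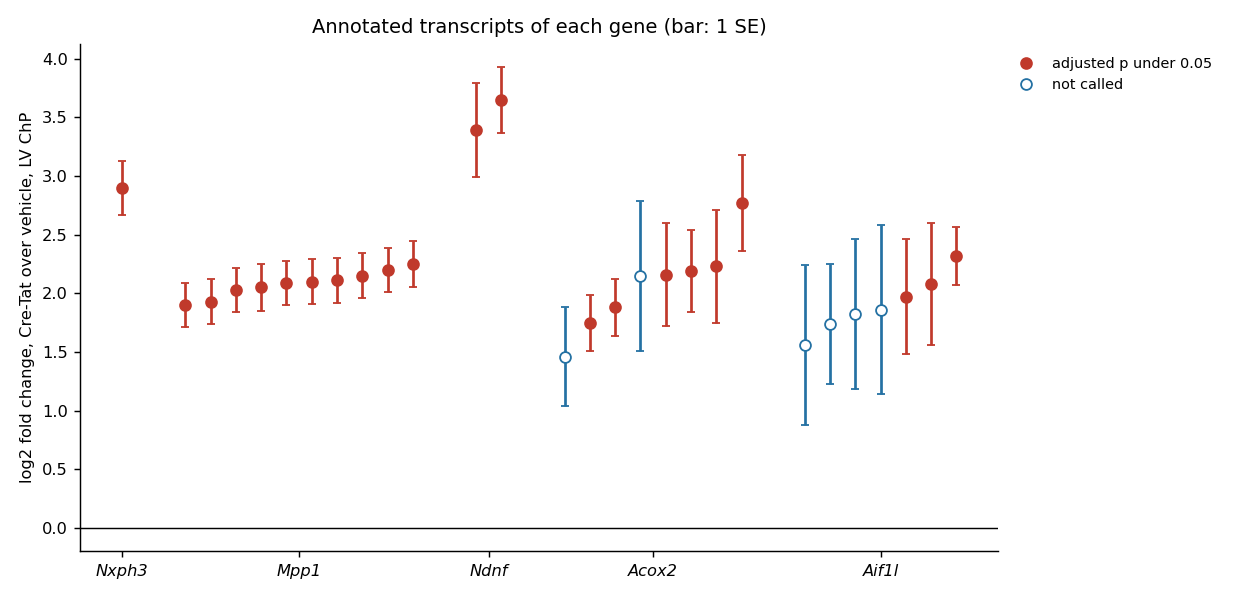
Log2 fold change, Cre-Tat over vehicle in LV ChP, of every tested annotated transcript of the 5 genes, ordered within each gene, with bars of 1 SE. Filled red points passed an edgeR adjusted p of 0.05 and open blue points did not. All lie above 0, from 1.46 for the lowest *Acox2* transcript to 3.65 for the highest *Ndnf* transcript.

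Genes with the most similar pattern were found by Pearson correlation over the 14 pools of log2 CPM, each pool taken relative to its own vehicle or wildtype mean, among 15893 genes. The pools share treatment groups and runs, so r is a description. They include the 4V pools on which the 5 genes were picked, so a high r among the 5 follows in part from that choice. *Nxph3* and *Mpp1* were each other's closest gene (r = 0.983). Next to *Mpp1* came *Rtl5* (r = 0.979), a gene derived from a retrotransposon, at 3.73 CPM in vehicle LV and 23.0 in Cre-Tat LV, 3.98 in vehicle 4V and 35.3 in Cre-Tat 4V, and 2.63 in wildtype and 4.63 in Otx2(+/-). The other near genes of this pair, *9030619P08Rik* (r = 0.979, *Nxph3*) and *Igkv5-48* (r = 0.978, both), had means under 2 CPM in every group.

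*Ndnf* was closest to *Fmod*, *Fgf1* and *Col11a1* (r = 0.986, 0.984 and 0.981). *Fmod*, a collagen-binding proteoglycan, had mean levels of 43.3 and 405 CPM in vehicle and Cre-Tat LV, 19.0 and 572 in vehicle and Cre-Tat 4V, and 18.1, 120 and 21.3 in wildtype, Otx2(+/-) and Otx2(+/AA). *Fgf1*, a growth factor, had 10.9 and 43.1, 11.5 and 50.5, and 9.19, 30.7 and 11.4 CPM in the same order. These genes were thus raised in Otx2(+/-) as well, and were near wildtype in Otx2(+/AA). *Acox2* was closest to *Vim*, *H2-Aa* and *2210016F16Rik* (r = 0.961, 0.959 and 0.956). *Vim*, the intermediate filament vimentin, had 96.5, 156 and 167 CPM in wildtype, Otx2(+/-) and Otx2(+/AA), and *H2-Aa*, a class II antigen-presentation gene, had 27.0, 27.8 and 41.4. Genes close to *Aif1l* included *Matn2* and *Rasl11b* (r = 0.979 and 0.970). *Matn2*, a matrix adaptor protein, was at 299 and 510 CPM in vehicle and Cre-Tat LV, at 219 and 534 CPM in vehicle and Cre-Tat 4V, and at 117, 189 and 137 CPM in wildtype, Otx2(+/-) and Otx2(+/AA).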

How the data were processed

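The authors extracted RNA with RNeasy kits; per the labels, ribosomal RNA was depleted with Ribo-Zero and strand-specific ScriptSeq V2 libraries were read as 50-base reads (the study's methods name polyA selection instead). The submitters' processing notes list bcl2fastq 1.8.4, Bowtie 0.12.9, SAMtools, HTSeq 0.5.3, DESeq 1.8.3 and build mm10. The deposited files hold raw counts per Ensembl transcript, without normalization. How reads shared by transcripts were split is not given in the sources used here.

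The members and gene lists were chosen with earlier results of these data known. Of 95533 transcripts, 82807 (89.5% of counts) matched GENCODE vM21, and the other 12726 were left out. For a gene with several transcripts, only the one with the highest summed count was used. The 2 runs of a conditional pool were summed by the library number in the file names. Genes passing filterByExpr were tested in edgeR 4.0.16 (R 4.3.3; TMM, quasi-likelihood fit, Benjamini-Hochberg adjusted p under 0.05), with only the 4 pools compared in each fit, and SE was taken as the absolute log2 fold change divided by the square root of F. The biological coefficient of variation in LV was 0.152. Groups of 2 pools allow an exact permutation p no lower than 0.333, so no test outside the model was run. Apart from the 5 genes and *Otx2*, named genes are those of the fixed lists that passed the test, close paralogs and the 3 genes of highest r per member, of which some are not reported here. P-values set a difference against the spread between pools, which edgeR estimates with information shared over genes. The spread among mice within a pool was not measured. Scripts were tested on simulated counts. Alternatives were DESeq2 1.42.0, other scalings, no filter, counts summed over transcripts, all pools of a run in 1 fit, a replicate block, files as attached and each pool left out.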

Additional observations from a re-analysis of the deposited data

How the results depend on the processing

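With the files as attached, where each pool mixed files of different library numbers, the LV log2 fold changes turned to -0.93 (*Nxph3*), -1.23 (*Ndnf*), -0.48 (*Acox2*) and -1.04 (*Aif1l*), with *Mpp1* at 0.10 and *Otx2* at -0.01, and in 4V to -0.57, -1.92, -0.41 and -1.66, with *Mpp1* at 0.07 and *Otx2* at -0.29. Relatives also turned: in LV *Nlgn1* -0.83, *Lrrtm2* 0.10, *Whrn* -0.49, *Ddo* -0.37 and *Pipox* -0.68; in 4V *Nlgn1* -0.77, *Nlgn3* 0.01, *Mpp6* -0.32, *Crb3* 0.16, *Epb41l3* 0.61, *Sptb* 0.22, *Whrn* -0.98, *Ntf5* 0.50, *Artn* -1.07, *Fgfr2* -0.25, *Pls3* 0.30 and *Ezr* -0.46. Genes called then numbered 6710 in LV and 8742 in 4V.

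Under the other 12 LV alternatives all 5 genes stayed called higher, with log2 fold changes of 2.59 to 3.28 (*Nxph3*), 1.88 to 2.34 (*Mpp1*), 3.13 to 4.43 (*Ndnf*), 1.70 to 1.95 (*Acox2*) and 1.89 to 2.65 (*Aif1l*) and adjusted p of at most 0.004 (edgeR or DESeq2). Beside the losses on leaving out a pool, LV calls were lost with total counts (*Lrrtm2*, *Clstn3*, *Crb3*), summed transcripts (*Lrrtm2*) and DESeq2 size factors (*Crb3*), 4V calls with DESeq2 (*Mpp2*, *Epb41l3*, *Ntf5*, *Aif1*, *Lcp1*, *Coro1a*), total counts (*Mpp2*, *Epb41l3*, *Ntf5*, *Pls3*), summed transcripts (*Ntf5*) and all pools in 1 fit (*Mpp2*), and the Otx2(+/-) call of *Epb41l3* with summed transcripts and total counts. Genes called in LV (486) were 874 without a filter and 321 to 738 with 1 pool left out. In 4V with Cre-Tat (1554) they were 892 to 1665 with 1 pool left out, and in Otx2(+/-) (517) 402 to 882. In Otx2(+/AA) (50) they were 122 with DESeq2, 18 with all pools in 1 fit, 22 with summed transcripts, 390 without a filter and 33 to 382 with 1 pool left out. A replicate block on the pool letter gave 623 in LV, 3113 in 4V, 2538 in Otx2(+/-) and 549 in Otx2(+/AA). The labels do not say that a letter marks a shared litter or day; correlations of same-letter deviations were -0.116, 0.0994, 0.287 and 0.0503, the 0.287 in Otx2(+/-) being a hint from the data that letters pair those pools. The crossed block in LV, chosen after seeing the data, gave 1012. Scaling by total counts moved the median of all genes by 0.15 in LV and 0.14 in 4V, and the share of calls that were higher from 68.1% to 86.3% and from 53.3% to 74.6%; with DESeq2 the LV share was 58.1%. Why these counts moved was not tested. With 1 pool left out, the lone pool is assumed to vary like the other group. The 2 runs of 1 pool differed by up to 1.86-fold (*Aif1l*).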
